A study of Bos taurus with 40 samples.

Results

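In the muscle of bulls, 118 genes stood on one side of the fully fed level late in a feed restriction and on the other side 15 days after full feeding resumed. 47 of them were higher in restricted bulls and then lower, and 71 were lower and then higher. They were drawn from the 10955 genes with a mean level of 1 to under 1000 CPM over all 40 libraries (CPM, the counts-per-million scale), among 24616 genes in the deposited count files. A gene was a member when the log2 ratio of the restricted to the control median, with 0.5 CPM added to both, was at least 0.4 in size at both times and changed sign between them. Both ratios came from all 40 libraries, so they are a description of how the members were picked and carry no test. The deposited files list the genes by Ensembl ID without names, and the reference table used here pairs 0 of its entries with those IDs, so that the members' functions are not given.

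The study was read as following 20 purebred Holstein-Friesian bulls, a dairy breed, each sampled at both times. One text of the labels gives 10 bulls per group and another gives 20, and changes within bulls rest on that reading. 10 control bulls were fed without limit in both periods. 10 restricted bulls were held to a target gain of 0.6 kg daily during period 1, which lasted 125 days, and were fed without limit during the 55 days of period 2. Both groups shared 1 ration, by share 70% concentrate with 30% grass silage. Biopsies of muscle from day 120 (period 1) and day 15 (period 2) gave 4 groups of 10 libraries: control bulls and restricted bulls on day 120, and control bulls and previously restricted bulls on day 15. The labels name the tissue only as muscle and give no age, and a biopsy holds fibres together with fat, connective tissue, vessel and blood cells.

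Compensatory growth is the known speeding up of growth in cattle when plentiful feed follows a spell of scarcity. Skeletal muscle can lower its building of protein and raise its breakdown under scarce feed, and it can reverse both when nutrients and the hormones that signal them return. Neither was measured here. Transcripts can go back to the fed level after refeeding, stop short of it, or pass it. The genes described here are those whose group medians passed it.

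Counts over genes ran from 20.76 M to 32.97 M per library, with a median of 25.57 M (M, 1000000 counts), and CPM were taken against these totals. 7 libraries stood apart from the other 33 by a low share of reads outside annotated genes, 10.0% to 11.2% against 13.3% to 18.7%. They were control bull 6 and restricted bulls 1 and 9 on day 120, and control bulls 2, 3 and 8 and restricted bull 10 on day 15. Among control libraries there were thus 1 on day 120 and 3 on day 15, and among restricted libraries 2 and then 1. In an edgeR fit with a term for them, 62.5% of genes were called different in these 7. Most ratios of medians between feeding groups, the genes that met the rule and the edgeR calls are given with and without them. Some values, among them library positions and changes within bulls, are given with them only.

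Genes past the threshold in restriction were mostly within it on day 15, where within includes genes on either side of the control median. Of 285 genes past the threshold on the high side on day 120, 47 (16.5%) were past it on the low side on day 15, 203 (71.2%) were within it and 35 (12.3%) were still past it on the high side. Of 1387 genes on the low side, 71 (5.12%) crossed, 1166 (84.1%) were within the threshold and 150 (10.8%) stayed low. These shares moved with the scaling. With counts scaled to the total, the median log2 ratio of all 10955 genes was -0.11 on day 120 and -0.01 on day 15. With TMM scaling, which sets the bulk of genes level, those medians were -0.02 and -0.00, and the shares that crossed were 8.89% of 495 high and 6.21% of 854 low genes. Without the 7 libraries, with counts scaled to the total, the shares were 14.05% of 299 high and 3.69% of 1462 low genes.

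**Figure D1:**
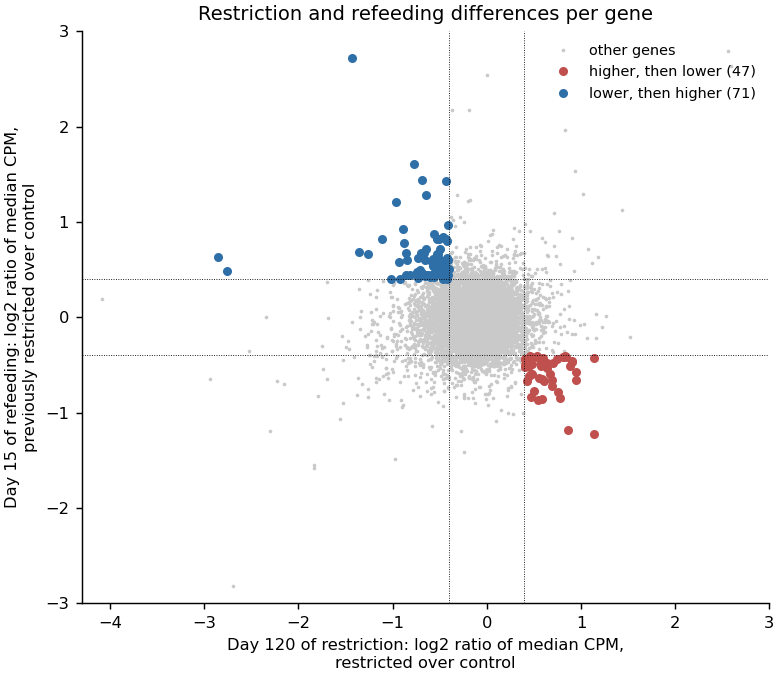
Each point is a gene of mean level 1 to under 1000 CPM. The x axis gives the log2 ratio of median CPM of restricted over control bulls on day 120, the y axis the same on day 15 of refeeding, and dotted lines mark 0.4. The 47 red genes lie in the lower right and the 71 blue genes in the upper left, most of them close to the corners formed by the thresholds.

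Most members were close to the threshold in the smaller of their ratios. The smaller of the 2 log2 ratios had a median of 0.47 in the first direction and 0.48 in the second, and it was under 0.5 in 29 of the 47 genes and in 41 of the 71. Only 9 members were at least 2-fold apart in restriction, 8 at least 2-fold apart on day 15, and 2 at both times. Among the genes that were higher and then lower, the log2 ratio ran from 0.41 to 1.14 in restriction (median 0.59) and from -1.22 to -0.41 on day 15 (median -0.51). Among those that were lower and then higher, it ran from -2.86 to -0.40 (median -0.57) and from 0.40 to 2.72 (median 0.58). The day 15 ratio was the larger in size for 24 of 47 and 33 of 71 genes. The nearest members inside the threshold had ratios of -0.417 and 0.401, and of -0.402 and 0.504. The nearest genes outside it had -0.39998 and 0.442, and -0.39997 and 0.565, so that no gap in the values sets members apart from other genes.

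Members were of modest abundance and varied among bulls. The median of the mean levels was 6.50 CPM for the genes that went from high to low and 7.70 CPM for those that went from low to high, against 10.5 CPM over all 10955 genes. 50 of the 118 (42.4%) had a mean under 5 CPM, against 30.7% of all genes, and 9 had at least 100 CPM. The highest mean was 250.5 CPM. The spread between bulls within groups, as an SD of log2(CPM + 0.5), had a median of 0.41 and 0.52 in the 2 sets and 0.32 over all genes. In the shallowest library 1 count was 0.0482 CPM. Fewer cells of a type in the biopsy and less RNA per cell cannot be told apart in such bulk samples.

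ENSBTAG00000039335 had the highest ranking among genes that were higher and then lower. In control bulls on day 120 it ranged from 9.94 to 73.4 CPM with a median of 18.4, and in restricted bulls from 8.58 to 118 CPM with a median of 41.0. On day 15 control bulls ranged from 13.5 to 48.5 CPM with a median of 31.8, and previously restricted bulls from 5.09 to 18.3 CPM with a median of 13.4. The groups overlapped widely in restriction, where 8 of 10 restricted libraries were above the control median and 1 was above every control library. On day 15 all 10 previously restricted libraries were below the control median and 5 below every control library. The log2 ratios of medians were 1.13 and -1.22, and without the 7 libraries 1.28 and -1.50. Within bulls the level fell in 9 of 10 restricted animals, with a mean log2 change of -1.64 ± 0.96 (SD, n = 10). In control bulls it rose in 8 of 10, with a mean of 0.51 ± 1.22.

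ENSBTAG00000003786 was scarce, at 3 to 85 counts per library. Its control range on day 120 was 0.439 to 1.56 CPM (median 1.03) and its restricted range 0.609 to 3.85 CPM (median 2.28). On day 15 the control range was 0.318 to 1.45 CPM (median 1.19) and the previously restricted range 0.104 to 0.607 CPM (median 0.247). Of the 2 genes of this direction given by ID it was the more cleanly separated: 9 of the 10 restricted bulls exceeded all controls on day 120 and 8 fell short of all controls on day 15. Without the 7 libraries the log2 ratios were 0.80 and -0.89. With all 40 the ratios of 0.86 and -1.18 depended on the 0.5 CPM added before taking logs, and with 0.1 CPM they were 1.08 and -1.89. It fell in 10 of 10 restricted bulls, by a mean log2 change of -1.81 ± 0.61 (SD, n = 10), while 5 control bulls rose and 5 fell (-0.05 ± 0.61).

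ENSBTAG00000038748 had the largest difference between the 2 ratios of all 118 members. On day 120 control bulls ranged from 0.181 to 5.29 CPM (median 1.35), and restricted bulls from 0 to 1.92 CPM (median 0.183), with 3 libraries at 0 counts. On day 15 control bulls ranged from 0.460 to 63.95 CPM (median 2.35) and previously restricted bulls from 4.73 to 239 CPM (median 18.2). The groups overlapped on day 15. 4 of 10 previously restricted bulls were above every control bull, and control bull 10, at 63.95 CPM, was far above the other control bulls, of which the next had 8.25 CPM. The log2 ratios were -1.43 and 2.72, and without the 7 libraries -1.63 and 2.65. The first was -2.35 with 0.1 CPM added in place of 0.5 and -0.97 to -1.78 when single libraries were left out. The gene rose in 10 of 10 restricted bulls, with a mean log2 change of 5.34 ± 1.80 (SD, n = 10), and in 6 of 10 control bulls, with 1.01 ± 2.45.

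ENSBTAG00000013081 was in control bulls at 1.77 to 7.24 CPM (median 3.50) and in restricted bulls at 0.723 to 2.29 CPM (median 1.55) on day 120. On day 15 control bulls had 1.15 to 4.48 CPM (median 2.04) and previously restricted bulls 1.79 to 27.9 CPM (median 5.38). All 10 restricted libraries were below the control median in restriction, 8 of them below every control library. After refeeding 9 were above the control median and 7 above every control library. The log2 ratios were -0.96 and 1.21. The day 15 ratio was 0.57 without the 7 libraries, where the medians were 3.25 CPM in control and 5.09 CPM in previously restricted bulls, and 1.87 from group means. The gene rose in 10 of 10 restricted bulls, by 2.08 ± 1.41 log2 units (SD, n = 10), and fell in 8 of 10 control bulls, with a mean of -0.52 ± 0.60.

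**Figure D2:**
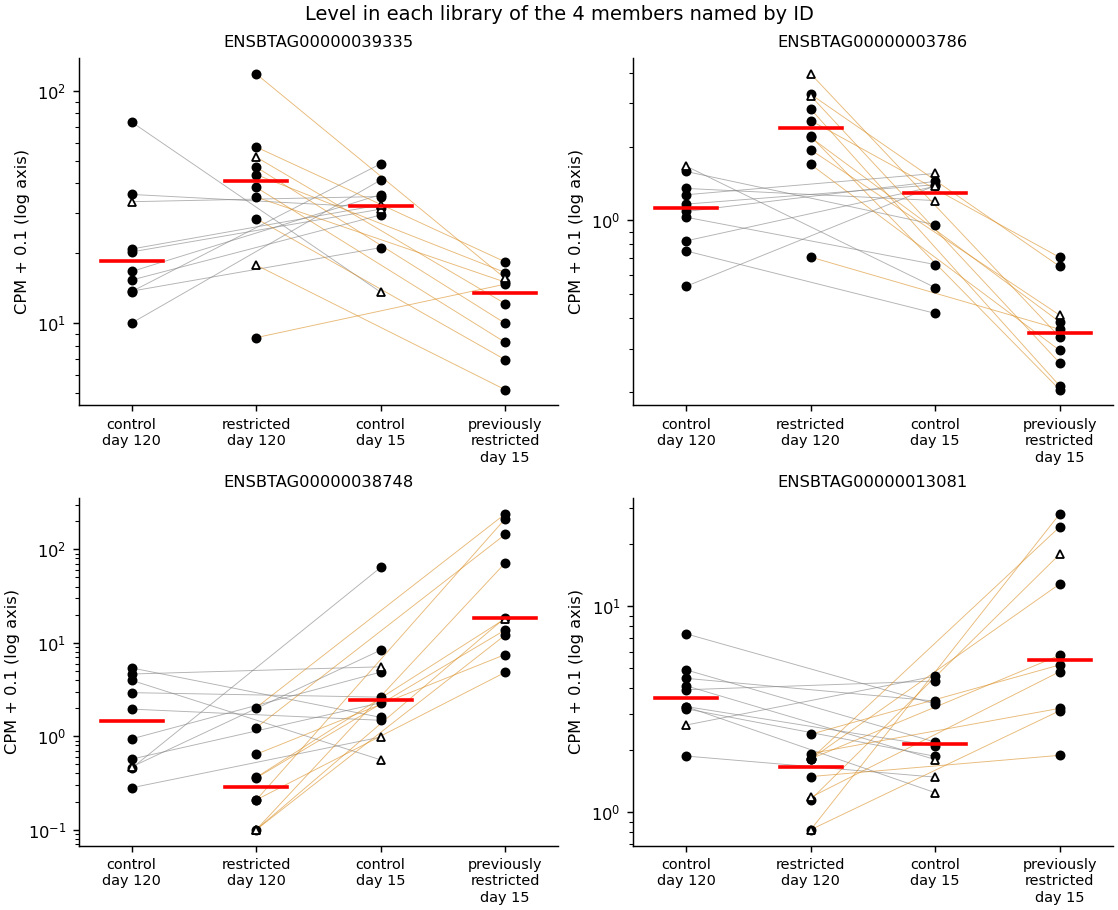
CPM + 0.1 on a log axis for the 4 members named by ID, in each of 40 libraries. Lines join both libraries of a bull, red bars are group medians, and white triangles are the 7 libraries with a low share of reads outside genes. In the upper panels the red bar of the restricted bulls goes from the highest to the lowest of the 4 groups, and in the lower panels from the lowest to the highest.

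How cleanly the groups separated differed from member to member. In restriction, a median of 5 of 10 restricted libraries lay above every control library for the genes that were high, and a median of 4 lay below every control library for those that were low. On day 15 these medians were 5 and 1. All 10 restricted libraries lay on the members' own side of the control median for 60 of the 118 genes on day 120 and for 31 on day 15. Groups without any overlap were found for 2 members on day 120, both low in restriction, where the share of all 10955 genes was 0.52%, and for 0 members on day 15, where it was 0.1%. The rule used these same contrasts, so these counts describe the members and are not support for them.

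The members were then summarised library by library. For each library, the median over a set of its log2 distance from the control median of the same day was taken. For the genes that were higher and then lower, restricted libraries ranged from 0.34 to 0.85 on day 120 (median 0.56), above every control library (-0.16 to 0.31). On day 15 previously restricted libraries ranged from -0.70 to 0.00 (median -0.58), and control libraries from -0.26 to 0.24. For the genes that were lower and then higher, restricted libraries ranged from -0.76 to -0.47 on day 120 (median -0.62), below every control library (-0.44 to 0.22). On day 15 the ranges were 0.08 to 0.87 (median 0.54) in previously restricted and -0.47 to 1.21 in control libraries. The choice of members fixes that the group medians lie apart. It does not fix which animals depart from them.

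Restricted bull 7 was the animal that passed the control level least on day 15. Its position was 0.00 in the set that fell and 0.08 in the set that rose, the value nearest to the control median in each. The bull next nearest to 0 in the first set was restricted bull 10 at -0.32, which is among the 7 libraries. Restricted bull 7 was on the high side of the control median for 24 of the 47 genes, where the other previously restricted bulls were so for 1 to 8. For 31 of the 71 genes that had been low it was still at or below the control median. Its library on day 120 lay within the range of its group, at 0.64 and -0.56. The fewest genes of the first set fell in this bull, 39 of 47, against 41 to 47 in the other restricted bulls. With its day 15 library left out, 55 genes met the rule in the first direction and 94 in the second. The 55 was the highest count with any single library left out. The 94 was not particular to this bull, since leaving out restricted bull 2 or 9 on day 15 also gave 94 and restricted bull 10 gave 99.

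Control bull 7 stood out on the opposite side. On day 15 its position for the genes that had been low in restriction was 1.21, above all 10 previously restricted bulls, of which the highest was at 0.87. It was the highest control library for 49 of those 71 genes, at least 2 times the control median for 41, and above every previously restricted bull for 26. For the genes that were higher and then lower its position was 0.13, within the range of the other control bulls. In the edgeR fit, which compares group means and not medians, 60 of the 71 genes were fitted higher and 11 lower in previously restricted bulls on day 15. Without control bull 7 these numbers were 66 and 5, and the median fitted log2 fold change went from 0.46 to 0.59. With that library left out 113 genes met the rule in this direction, and 112 and 110 did without control bulls 4 and 6 of day 15, whose positions were 0.26 and 0.55. The library of control bull 7 had the highest share of reads outside genes on day 15, 17.6%. Those of control bulls 4 and 6 had 16.1% and 16.0%. Whether the positions follow this share was not tested.

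**Figure D3:**
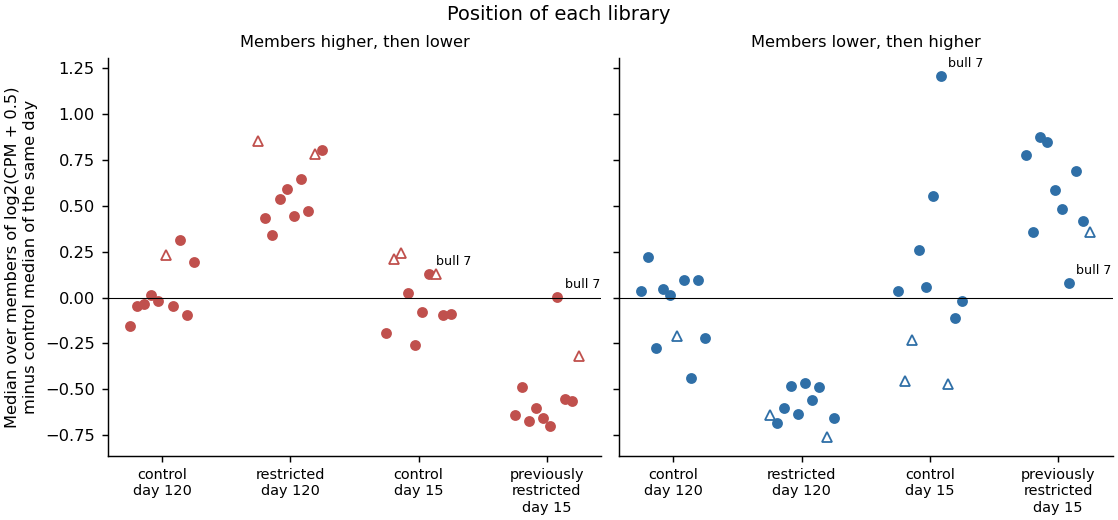
Median over the members of log2(CPM + 0.5) minus the control median of the same day, for each of 10 libraries in 4 groups, with the 47 genes on the left and the 71 on the right. White triangles are the 7 libraries with a low share of reads outside genes. Restricted bull 7 on day 15 lies at 0.00 and 0.08, and control bull 7 on day 15 lies at 0.13 and, above every other library of the right panel, at 1.21.

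Changes over time were compared between the feeding groups by their medians. The difference between the day 15 and day 120 ratios equals the change over time in the restricted group minus that in the control group. For the genes that were higher and then lower, the median log2 change of the group medians was -0.91 in restricted and 0.21 in control bulls. For those that were lower and then higher it was 0.96 and -0.24. Over all 10955 genes the medians were 0.09 and -0.02. The restricted change was the larger in size for 106 of 118 members. For 98 of the 118 the control median moved in the opposite direction to the restricted median, and for 28 it did so by at least 0.4. Control changes of at least 0.4 in either direction were seen for 34 members (28.8%) and for 6.29% of all genes. The rule favours genes whose control medians move against the restricted ones, so these shares were in part set by it. By group means, in the edgeR fit, the control change had a median of 0.23 for the 47 genes, with 40 fitted higher, and of -0.01 for the 71 genes, with 33 fitted higher. A control change in the second direction was thus seen in medians of CPM and not in the fit. The fit differs from them by its group means and also by its TMM scaling.

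The control medians that stood for the fed level differed between the days, although edgeR called 0 of the 118 members in control bulls over time. Set against the control bulls of day 120 instead of day 15, the day 15 median of previously restricted bulls was past the control median for 104 of 118 members, 41 of 47 in the first direction and 63 of 71 in the second. It was past it by at least 0.4 log2 units for 48 members, 19 and 29. For 1 gene of the second direction, the restricted median did not rise at all after refeeding. It fell by 0.84 on the log2 scale while the control median fell by 1.94.

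**Figure D4:**
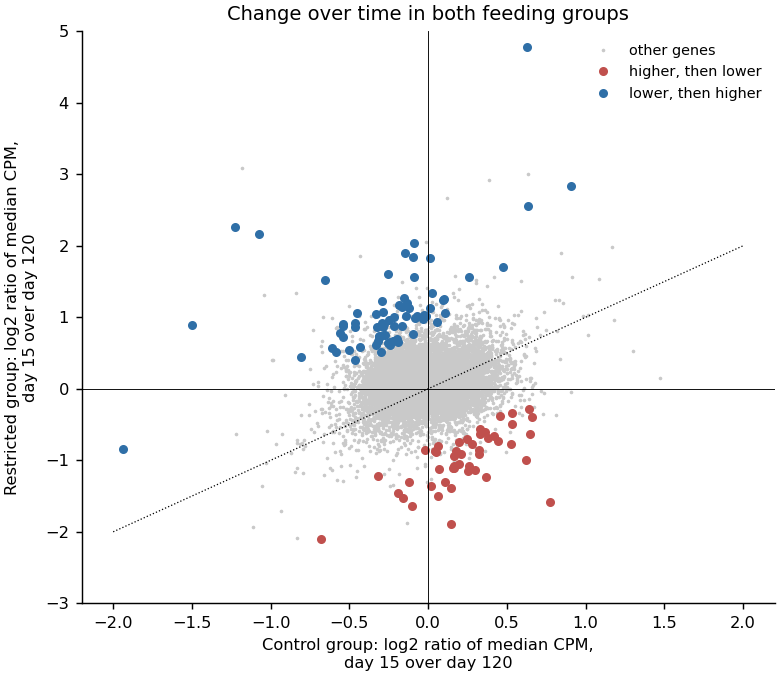
The log2 ratio of median CPM on day 15 over day 120, for control bulls on the x axis and restricted bulls on the y axis, with a dotted line of equal change. The 47 red genes lie below 0 on the y axis with a median of -0.91, and the 71 blue genes above 0 with a median of 0.96, apart from the blue gene at -1.94 and -0.84. Most members lie on the opposite side of 0 on the x axis.

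Within animals, 70 of 118 members (59.3%) changed in the direction of return in all 10 restricted bulls, and 108 did so in at least 8. Over all 10955 genes, 8.76% changed in one direction, either way, in all 10 restricted bulls and 44.5% in at least 8. The rule picked members by a reversal between these same libraries and so largely fixes such counts. Per restricted bull, 39 to 47 of the 47 genes fell (median 44.5), with a median log2 change of -1.29 in bull 1 and -0.42 in bull 7 as the extremes. 51 to 69 of the 71 genes rose (median 67), with median changes from 0.44 in bull 7 to 1.45 in bull 3. Restricted bull 10, whose day 15 library is among the 7, had the 51. Control bulls differed among themselves. 4 to 33 of the 47 genes fell in a control bull and 3 to 59 of the 71 rose. The extreme control bulls of the second set were bull 2, whose day 15 library is among the 7, with a median change of -0.96, and bull 7 with 0.81.

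The counts were also fitted with edgeR (quasi-likelihood F test, Benjamini-Hochberg adjustment over 12753 genes, called at an adjusted p under 0.05). All 118 members were among the genes tested. In restriction 54 members were called, where 9.79% of all genes were. 33 of the 47 genes were called higher, where 4.49% of all genes were, and 21 of the 71 were called lower, where 5.3% were. On day 15, 48 members were called (background 7.2%). 20 of the 47 were called lower (background 3.92%) and 28 of the 71 higher (background 3.28%). Calls against the members' direction numbered 0 in these 4 counts. 23 members were called at both times, 13 and 10 by direction, and 39 at neither, 7 and 32. Of the 10953 tested genes of mean level 1 to under 1000 CPM, 146 were called at both times and 9128 at neither. Opposite signs were seen for 49 of the 146. The rule used both contrasts, so nothing is read from these counts.

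Over time in the restricted group 98 members were called (background 19.1%). 41 of the 47 genes were called lower (background 9.34%) and 57 of the 71 higher (background 9.81%). In the control group 0 of the 118 were called, where the background was 0.0392%. At an unadjusted p under 0.05 there were 17 of 118 members in the control group, against 19.1% of all genes tested, and DESeq2 called 1 member among 113 genes. The difference between both changes over time was called for 82 members (background 6.37%), for 41 of the 47 in the negative direction (background 3.35%) and for 41 of the 71 in the positive (background 3.02%). These changes are built from the same libraries as the rule, and their counts are descriptions too. A fit with each bull as a block called 99, 0 and 86 members in these 3 comparisons, against 98, 0 and 82 without it. Over all genes the block gave 2581, 3 and 944 calls, against 2442, 5 and 812.

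The members' levels in the 7 libraries were compared with those in the rest. Within groups, genes that were higher and then lower were higher in the 7 than in the other libraries for 39 of 47, with a median log2 difference of 0.30, and genes that were lower and then higher were lower in the 7 for 58 of 71, with a median of -0.41. Over all 10955 genes the median was -0.18, with 37.2% higher. In an edgeR fit with a term for the 7 libraries, 26 of the 47 were called higher in them (background 28.3%) and 25 of the 71 lower (background 34.2%). By calls, the share of the 71 was close to that of all genes. These libraries are unevenly placed, 1 control and 2 restricted on day 120 and 3 control and 1 restricted on day 15.

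Without the 7 libraries 113 of the 118 members kept opposite signs, all 47 in the first direction and 66 of 71 in the second. 56 still met both thresholds, 25 and 31. The median log2 ratios of the 47 genes were 0.58 and -0.49 in the other 33 libraries, against 0.59 and -0.51 in all 40. Those of the 71 genes were -0.54 and 0.41, against -0.57 and 0.58. The rule applied anew to the 33 libraries gave 42 and 54 genes. The 25 shared genes were 53.2% of the members and 59.5% of the new list in the first direction, and the 31 were 43.7% and 57.4% in the second. In the edgeR fit to these 33 libraries 28 members were called on day 15, against 48 from all 40, while calls over all genes went from 918 to 856. In restriction 54 members were called in both fits, while calls over all genes went from 1249 to 2102. Over time in the restricted group 102 members were called, against 98, with 3591 and 2442 over all genes. For the difference between both changes over time it was 70 members, against 82, with 698 and 812 over all genes.

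Which genes qualified also depended on how each level was summarised. With TMM scaling 44 and 53 genes met the rule, 35 and 40 of them members. Group means in place of medians gave 44 and 46 genes, with 29 and 30 members among them. The authors' deposited normalised values, read for genes present in both periods, gave 43 and 43, with 33 and 30. 64 of the 118 members (54.2%) met the rule in each of the 40 fits to 39 libraries, 26 of 47 and 38 of 71.

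**Figure D5:**
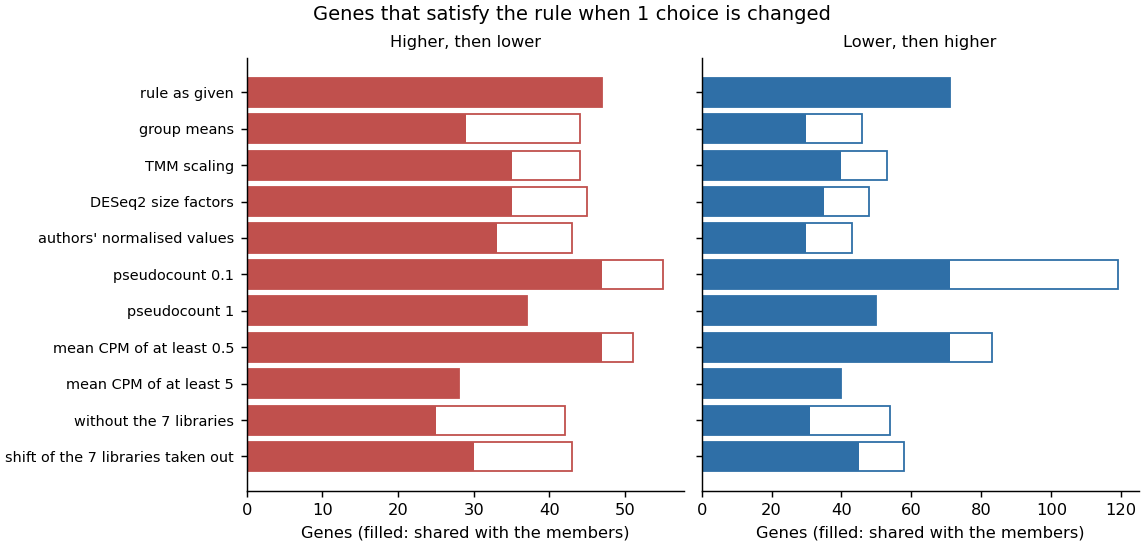
Number of genes that satisfied the rule when 1 choice was changed, as open bars, and the number of those that are among the 118 members, as filled bars. From group means, TMM scaling, the authors' values or the 33 libraries, lists of 42 to 54 genes came out, of which 25 to 40 were members.

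Members were also compared among animals of the same group and day. Deviations of log2(CPM + 0.5) from the group means were correlated over 40 libraries for each pair of genes, as a description in which all points share libraries. The median correlation was 0.33 over the 2485 pairs of genes that were lower and then higher, and 0.21 over the 1081 pairs of the other set. Across the directions it was -0.12 over 3337 pairs, and over all 60000535 pairs of genes 0.15. Without the 7 libraries these medians were 0.33, 0.19, -0.07 and 0.16. Without control bull 7 on day 15 they were 0.26, 0.21, -0.17 and 0.08. The genes were selected on group medians, not on these deviations, although a library far from its group enters both. Medians and deviations come from the same libraries, so the correlations are not independent of the selection.

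A bull's own level was also compared between its 2 biopsies. The correlation of a gene's deviations on day 120 with those on day 15, over 20 bulls, had a median of 0.25 for genes that were higher and then lower, 0.09 for genes that were lower and then higher, and 0.04 over all genes. After the shift of the 7 libraries was taken out, the medians were 0.29, 0.16 and 0.16.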

How the data were processed

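Single-end TruSeq libraries were made from DNase-treated Trizol RNA, per the labels' protocols. Tools listed in the submitters' processing notes, with no roles, are edgeR, HTSeq, TopHat and CASAVA 1.4; the assembly listed is UMD3.1, and strand handling is not given in the sources used here. The authors deposited whole-number read counts per gene, which all tests used. They also deposited a normalised signal, which lay within 0.000598 of whole counts when multiplied back and served as an alternative. Lines naming no gene were left out: 10.0% to 18.7% of reads lay outside genes and 0.584% to 1.40% were ambiguous.

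CPM used total gene counts. edgeR 4.0.16 (R 4.3.3; robust quasi-likelihood F test, TMM, filterByExpr with a minimum count of 10 and a total of 15) was fitted to all 40 libraries with 4 group means; DESeq2 1.42.0 was an alternative. Other steps used Python 3.11.15. The edgeR fit and the rule for members were tested on simulated counts with known changes. The libraries come from separate bulls within a group. Reads carry no molecular identifiers.

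The title numbers were taken to pair both libraries of a bull. With the shift of the 7 libraries removed, same-numbered libraries correlated at 0.11 to 0.44 in control and 0.21 to 0.43 in restricted bulls. All 10 pairs of each were above 0.1. Libraries of other numbers had medians of -0.02 and -0.04 and reached 0.34 and 0.18. Without that removal 7 pairs of each were above 0.1, and the lowest were at -0.27 and -0.32. Other numbers then reached 0.72 and 0.71. The pairing thus rests on the titles, and the correlations alone do not settle it.

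The members, the gene lists and the alternatives were chosen with earlier results of these data known. 4 IDs that the rule sets aside are not reported here. By the rule for names, the 2 members per direction with the largest smaller ratio are given by ID. Lists of pathway genes and cell type markers, and a search of promoters, had been planned by gene symbol. They could not be matched to the IDs, so the tissue was not checked against markers and no sequence is shown.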

Additional observations from a re-analysis of the deposited data

Results flagged for a closer look

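Checks for a sample far from the rest covered 28 sets of 10 values. They were 4 genes and 2 sets of members in 4 groups each, and the change of both sets in each feeding group. 3 held one, each the highest CPM of a gene in its group. Chance gives about 1 in 20 for normally distributed values. The genes were checked as CPM without logs, so the 3 cannot be set against that rate. ENSBTAG00000039335 reached 73.4 CPM in control bull 8 on day 120, with the next control bull at 35.8 CPM. The same gene reached 118 CPM in restricted bull 10 on day 120, with the next at 57.3 CPM. ENSBTAG00000038748 reached 63.95 CPM in control bull 10 on day 15, with the next at 8.25 CPM. Leaving out any 1 of the 40 libraries left the log2 ratios of ENSBTAG00000039335 at 1.00 to 1.28 and -1.36 to -1.09, and those of ENSBTAG00000038748 at -1.78 to -0.97 and 2.63 to 2.81. These ratios use group medians, which move no more without the highest library than without any other library above the median. The ranges therefore cannot gauge the weight of an outlying value.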

How the results depend on the processing

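The numbers of members, 47 higher then lower and 71 lower then higher, were set mostly by the threshold: 0.3 gave 94 and 233 genes and 0.6 gave 8 and 18. A mean of at least 5 CPM gave 28 and 40. For the second direction, group means gave 46, the authors' normalised values 43 and 0.1 CPM added in place of 0.5 gave 119. The cause of these moves beyond the thresholds themselves was not tested. With each library left out in turn the numbers were 37 to 55 and 59 to 113 genes, the highest without control bulls 7, 4 and 6 on day 15 (113, 112 and 110). At an adjusted p under 0.01, 28 members were called in restriction and 17 on day 15, against 54 and 48 (over all genes 514 and 259, against 1249 and 918), and without the 7 libraries 28 on day 15. In control bulls over time, 0 members were called in edgeR, where 5 of all genes were. 1 member was called at an adjusted p under 0.1 (110 of all genes), in DESeq2 (113) and with RLE scaling (22). 1 was also called with total counts (13), with a mean of at least 1 CPM (20) and without the 7 libraries (90). Leaving out single libraries gave 44 to 60 members called in restriction, with 965 and 1383 called over all genes in those fits. On day 15 it gave 33 to 59, with 617 and 1363 over all genes. In restricted bulls over time it gave 92 to 100, with 2071 or 2153 and 2483 over all genes. For the difference between both changes it gave 78 to 92, with 647 and 1080 over all genes. In control bulls it gave 0 to 4. The 4 came without control bull 6 on day 120, where 298 of all genes were called, against 5 from all 40 libraries. The replicate block for each bull called 99, 0 and 86 members and moved no count by over 1.5 times. No log2 ratio of the 4 genes given by rank changed sign in any alternative. Of their values, 379 moved by less than the spread between bulls. 1 moved by more, that of ENSBTAG00000003786 on day 15 with 0.1 CPM added (-1.89). Leaving out a library of one day cannot change the ratio of the other day, so many of the 379 were fixed in advance. The 4 genes were also picked for large ratios. ENSBTAG00000003786 and ENSBTAG00000038748 each lack an authors' value in one period and were not checked with those values. The taking out of the shift of the 7 libraries was chosen after seeing the data and gave 43 and 58 genes. Depth limits members near 1 CPM.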

Other observations

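The edgeR calls give a second list of crossing genes, by group means and with TMM scaling. 49 of the tested genes of mean level 1 to under 1000 CPM were called at both times with opposite signs, 29 higher then lower and 20 lower then higher. 23 of them are members, which is 46.9% of the called genes and 19.5% of the members. The other 26 had a smaller log2 ratio of medians of 0.11 to 0.39 in size, under the threshold of 0.4. Both lists come from the same libraries, and their overlap is a description.

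The summed level of the 47 genes had medians on day 120 of 1366 CPM (control) and 1985 CPM (restricted), and on day 15 of 1533 and 1075 CPM. For the 71 genes these medians were 1357, 836, 1234 and 2081 CPM. The highest sum of the 71 genes in any library was 4135 CPM, in control bull 7 on day 15.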
